A study of Mus musculus with 4 samples.

Results

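The X-linked gene Clcn5 carries 5 miRNA hairpins in an intron, and their mature arms were followed in small RNA libraries of the mouse brain cortex. The members were chosen by name, as all mature miRNAs from the hairpins mir-188, mir-362, mir-500, mir-501 and mir-532. Both arms of each were found, which gave 10 of the 942 mature miRNAs in the table of read counts. The libraries came from 4 B6C3 mice aged 9 months, 2 wild-type (WT1 and WT2) and 2 APPswe/PS1deltaE9 double transgenic mice (AD mice, APP3 and APP4). The transgenes, a mouse/human amyloid precursor protein with the Swedish mutation and a human presenilin 1 without exon 9, are directed to neurons of the central nervous system. WT1 and APP4 are siblings (group 1) and so are WT2 and APP3 (group 2), and both groups therefore set a single AD mouse against a single WT mouse. The sex of the mice is not given in the sources used here.

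Clcn5 encodes ClC-5, an exchanger of chloride and protons in the membrane of endosomes. Hairpins within an intron are released from the host transcript, and the Drosha and Dicer enzymes cut each into a 5p arm and a 3p arm, of which usually a single arm is kept in the Argonaute protein as the guide strand. Hairpins of a common transcript are made together, but each mature arm is then cut, loaded and degraded on its own. miR-188-5p and miR-501-3p are known from hippocampal neurons, where they act on dendritic spines and on synaptic proteins. The members hence allow the question whether the neighbours of miR-501-3p, a miRNA that the study singled out in these libraries, move with it. Since miR-501-3p was picked out on these data, its own difference between the genotypes is given here as a description.

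In the GENCODE M21 annotation of GRCm38, Clcn5 lies on the minus strand of the X chromosome from 7153810 to 7319358. The hairpins occupy 10815 bases of it, chrX:7237683-7248497, and they overlap no exon. All of them lie within the same intron, which is intron 3 of 2 of the transcripts that span it and intron 2 of the third. Along the transcript Mir532 comes first (7248402 to 7248497), 70861 bases after the start of the gene. Mir188 (7247989 to 7248056) begins 441 bases after the start of Mir532, Mir362 (7241982 to 7242046) 6451 bases, Mir501 (7241243 to 7241351) 7146 bases and Mir500 (7237683 to 7237774) 10723 bases after it.

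The mature sequences of 9 of the 10 members were taken from RefSeq on GRCm38.p6 and are shown 5′ to 3′ because their seeds, in capitals (bases 2 to 8), set which members can share target sites and which members resemble each other most closely. miR-532-5p is the member without an entry.
miR-532-3p: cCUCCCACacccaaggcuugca
miR-188-5p: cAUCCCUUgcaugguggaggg
miR-188-3p: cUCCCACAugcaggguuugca
miR-362-5p: aAUCCUUGgaaccuaggugugaau
miR-362-3p: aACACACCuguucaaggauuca
miR-501-5p: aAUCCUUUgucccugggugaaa
miR-501-3p: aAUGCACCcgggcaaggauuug
miR-500-5p: aAUCCUUGcuaucugggugcuuagu
miR-500-3p: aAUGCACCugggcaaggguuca
Among these, miR-501-3p and miR-500-3p have the seed AUGCACC in common, and miR-362-5p and miR-500-5p the seed AUCCUUG. The seed of miR-362-3p is also that of miR-329-3p, which is made from another locus. miR-501-3p and miR-500-3p differ at 4 of their 22 bases, C9U, A18G, U21C and G22A, counted from 1 at the 5′ end with the base of miR-501-3p first. Without the last 2 bases they differ at 2 positions. The study's methods name both a limit of 2 mismatches and 2 changed bases at each end, for the profiling, and no mismatch for miRBase. Whether any read of either miRNA was counted on the other was not tested.

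The libraries held between 19048747 and 26085776 miRNA reads, and levels are given as reads per 1000000 miRNA reads of the library (RPM). Each read covers a small RNA as a whole, so no correction for length is needed. Ligation and PCR favour some sequences, and several reads can come from a single molecule. At these depths 3 reads correspond to 0.115 RPM in WT1 and 0.157 in APP4. As a check of the tissue, 4 miRNAs of cortex neurons summed to between 72692 and 80270 RPM, against 0.940 to 4.45 for the liver miRNA and 95.2 to 122 for 3 muscle miRNAs. A list of 5 miRNAs of epithelial and sensory cells summed to 1554 RPM in APP4 and to between 141 and 193 in the other mice.

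miR-532-5p dominated the cluster and miR-501-3p was its most variable member. In the order WT1, WT2, APP3 and APP4, which is kept below, miR-532-5p, known from work on cell proliferation, had 416, 334, 435 and 361 RPM. Its mean was 375 ± 57.5 RPM (SD, n = 2) for the WT genotype and 398 ± 52.1 RPM (SD, n = 2) for the AD genotype. The genotypes overlap, with the lowest and the second highest level both found in WT mice. miR-501-3p had 112, 279, 123 and 58.5 RPM, with means of 196 ± 118 RPM (SD, n = 2) for WT and 90.9 ± 45.8 RPM (SD, n = 2) for AD. WT2 was the highest and APP4 the lowest, while WT1 and APP3, which are not siblings, lay side by side with the AD mouse above the WT mouse. The highest level was 4.78-fold the lowest for miR-501-3p and 1.30-fold for miR-532-5p. Over all 252 miRNAs that averaged 50 RPM or more, the median of this ratio was 1.37, and 8 of them, miR-501-3p included, reached 4.78.

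The other hairpin arms were present at lower levels. miR-532-3p had 17.9, 20.8, 25.3 and 22.0 RPM. miR-500-3p, which has its seed in common with miR-501-3p, had 17.7, 22.3, 19.2 and 21.9 RPM. These levels overlap between the 2 miRNAs, and miR-500-3p did not repeat the order of the mice seen for miR-501-3p, since APP4 was near the top and not at the bottom. miR-188-5p, which is induced in neurons by synaptic potentiation, had 6.36, 6.16, 8.42 and 7.14 RPM. miR-362-3p had 6.25, 5.93, 7.29 and 8.50 RPM. For both of these the AD mice lay above the WT mice, by a narrow margin in each case. miR-362-5p had 4.22, 6.02, 3.53 and 4.1998 RPM, lower in both AD mice, although WT1 and APP4 were almost equal. miR-188-3p had 1.88, 3.03, 2.02 and 1.68 RPM, from at most 67 reads. This was the order of the mice seen for miR-501-3p, over a narrower range. miR-501-5p ranged between 1.22 and 1.89 RPM with the highest level in APP4. miR-500-5p, with 5 to 12 reads per library or 0.226 to 0.460 RPM, was close to the smallest level that can be shown. In the order of the means, miR-532-3p and miR-500-3p could not be separated by the ranges of the 4 mice, and neither could miR-188-5p and miR-362-3p, miR-362-3p and miR-362-5p, or miR-188-3p and miR-501-5p, whereas all other neighbours in the order were separate.

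**Figure D1:**
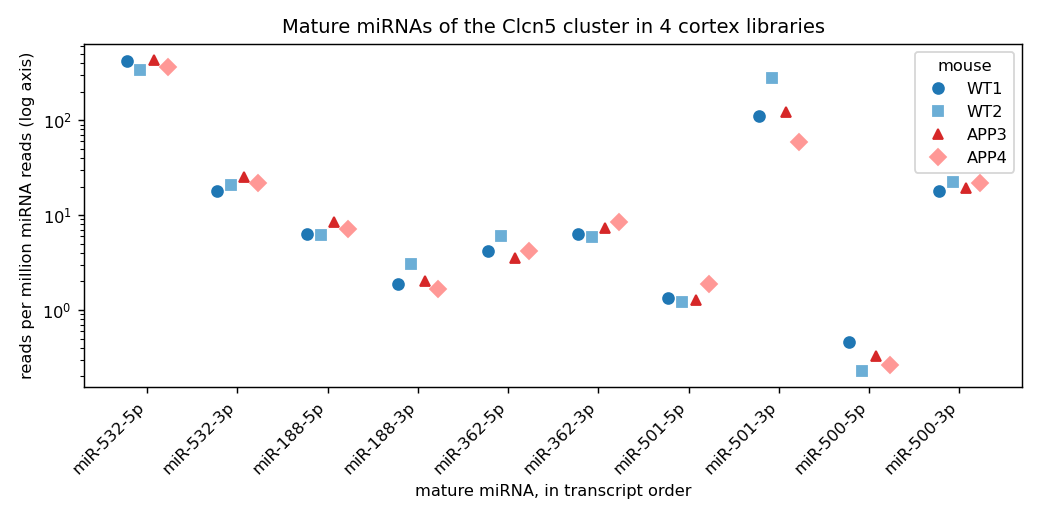
RPM (log axis) of the 10 mature miRNAs in transcript order, with a point for each of the 4 mice. The points of miR-501-3p spread from 58.5 to 279 RPM while those of miR-532-5p stay between 334 and 435.

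Because of this spread, the make-up of the cluster differed between the mice. In the order of the mice used above, miR-501-3p supplied 19.2%, 41.1%, 19.7% and 12.0% of the cluster's reads. miR-532-5p supplied 71.2%, 49.2%, 69.5% and 74.1%. For each read of miR-501-3p there were 3.71, 1.197, 3.53 and 6.18 reads of miR-532-5p. The cluster without miR-501-3p summed to 472, 400.1, 502 and 429 RPM, lowest in WT2, and most of this sum was miR-532-5p. Among the other neighbours, miR-188-5p, miR-362-3p, miR-501-5p and miR-500-5p were also lowest in WT2. In contrast, miR-500-3p, miR-362-5p and miR-188-3p were highest there, and miR-532-3p was neither.

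Within the sibling pairs, miR-501-3p was lower in the AD mouse and its neighbours did not share a fall of that size. The reads of a miRNA and all other miRNA reads of 2 libraries were set against each other in Fisher's exact test (two-sided), and the false discovery rate (FDR) was taken over all miRNAs tested by the Benjamini-Hochberg method. Calls needed an FDR below 0.05 together with a change of 1.5-fold or more. Such a test tells 2 libraries apart rather than the genotypes, and its errors, like all intervals below, cover counting error only. In group 1, 2920 reads of miR-501-3p in WT1 stood against 1114 in APP4, a log2 fold change of -0.94 (SE 0.05, FDR 2.73e-81 by Fisher's exact test). In group 2, 6168 reads in WT2 stood against 2621 in APP3, with -1.18 (SE 0.03, FDR 1.58e-292 by Fisher's exact test). In each pair only 3 of the 252 miRNAs with at least 50 RPM had a lower log2 fold change.

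Of the 10 members, 1 was called in group 1, where 11.6% of all 899 miRNAs tested were called, and 2 in group 2, where 6.81% of 896 were. The second call in group 2 was miR-362-5p, with 133 reads for WT2, 75 for APP3 and a log2 fold change of -0.77 (SE 0.21, FDR 0.000671 by Fisher's exact test). It had 110 reads in WT1 and 80 in APP4, where the log2 fold change was close to 0 at -0.0034 (SE 0.21). By the FDR alone, at any fold, 5 members passed in each group, where 40.3% of all miRNAs passed in group 1 and 36% in group 2. In group 1 miR-532-3p (0.30), miR-500-3p (0.30) and miR-362-3p (0.44) were higher in APP4 in log2 fold change and miR-532-5p was lower (-0.20). In group 2 miR-532-5p (0.38), miR-532-3p (0.28) and miR-188-5p (0.45) were higher in APP3. The median log2 fold change of the 9 neighbours was 0.17 in group 1 and 0.28 in group 2, against 0.21 and 0.05 over all miRNAs tested.

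The scale of group 1 depended on the normalization. The correction for library composition by trimmed means (TMM) lowers every log2 fold change of APP4 over WT1 by 0.25, and it turns the calls over all miRNAs from 87 higher and 17 lower into 39 higher and 46 lower. With TMM miR-501-3p had -1.19 in group 1 and -1.198 in group 2. miR-532-3p and miR-500-3p then both had 0.05 in group 1, miR-362-3p 0.19 and miR-532-5p -0.46, and miR-188-5p turned from 0.17 to -0.09. By the FDR alone 2 members were left in group 1, miR-501-3p and miR-532-5p, where 35% of all miRNAs passed. In group 2 miR-500-3p was added with -0.23 (FDR 0.0462 by Fisher's exact test), which gave 6 members, where 35.7% passed.

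**Figure D2:**
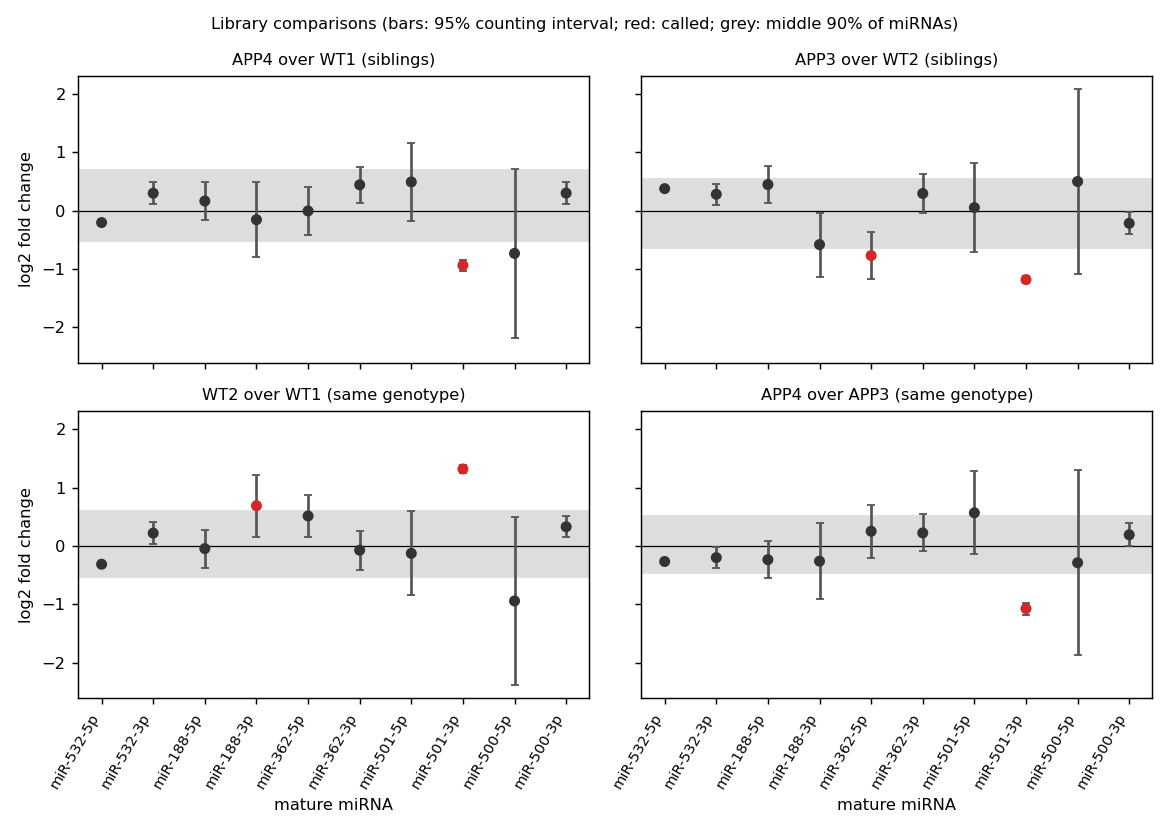
Log2 fold change of each member between the libraries named above each panel, with 95% counting intervals. Red points were called, and the grey band holds the middle 90% of the 252 miRNAs that averaged 50 RPM or more. miR-501-3p lies outside the band in all 4 comparisons, at -0.94, -1.18, 1.32 and -1.08.

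The distance between a neighbour and miR-501-3p does not depend on the scaling, as it is a ratio of 2 miRNAs within each library. For APP4 over WT1, miR-532-5p exceeded miR-501-3p in log2 fold change by 0.73 (95% interval 0.63 to 0.84), miR-500-3p exceeded it by 1.24 (1.02 to 1.45) and miR-501-5p, the other arm of the same hairpin, by 1.43 (0.76 to 2.10). In group 2 the distances were 1.56 (1.48 to 1.64) for miR-532-5p, 0.96 (0.76 to 1.17) for miR-500-3p and 1.23 (0.47 to 1.9999) for miR-501-5p. The intervals lay above 0 for 8 of the 9 neighbours in each group. The exceptions were miR-500-5p in group 1, with 0.21 (-1.24 to 1.66), for which the reads were too few, and miR-362-5p in group 2, with 0.41 (-0.00024 to 0.82). With 5 reads added in place of 0.5, the latter was 0.45 (0.044 to 0.85), so that all 9 intervals of group 2 lay above 0. miR-362-5p and miR-188-3p were the neighbours nearest to miR-501-3p in group 2, the latter with a distance of 0.60 (0.047 to 1.15).

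The cluster also differed between mice of a single genotype, and there miR-501-3p moved by as much. Between WT2 and WT1 its log2 difference was 1.32 (SE 0.03), and between APP4 and APP3 it was -1.08 (SE 0.05), so differences without a change of genotype reached the size of those between siblings. Of the members, 2 were called between the WT mice, where 10.1% of all miRNAs were, and 1 between the AD mice, where 8.05% were. The second call between the WT mice was miR-188-3p, with 67 reads in WT2 and 49 in WT1 (log2 0.69, SE 0.27), which was lost with TMM library sizes (0.58, FDR 0.0762 by Fisher's exact test). All 9 neighbours had intervals apart from miR-501-3p between the WT mice, with distances from -2.26 to -0.63, and 8 of 9 had between the AD mice, from 0.79 to 1.64, where the exception was miR-500-5p. Those libraries are the same as in the sibling comparisons, so the comparisons are not independent of each other. Among the marker lists, the choroid plexus miRNAs miR-204-5p and miR-211-5p did not share a course. miR-204-5p had 3484, 4370, 3472 and 2900 RPM, highest in WT2 and lowest in APP4 like miR-501-3p, over a narrower range. miR-211-5p had 15.7, 17.0, 33.3 and 25.6 RPM, higher in both AD mice. Their part in the result was not tested.

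The arms of a hairpin are made in equal numbers from a single precursor. Both are counted in the same library, so the share of the 3p arm is a measure that no library scaling can change. miR-501-3p took 98.8% of the reads of its hairpin in WT1 (98.4 to 99.1, 95% Wilson interval) and 99.6% in WT2 (99.4 to 99.7). Among the AD mice it took 99.0% in APP3 (98.5 to 99.3) and 96.9% in APP4 (95.7 to 97.7). In the same order there were 83.4, 228, 97.1 and 30.9 reads of the 3p arm for each read of the 5p arm. The 5p arm itself had only between 27 and 36 reads. For APP4 it had a log2 difference of 0.49 (SE 0.34) over WT1 and of 0.57 (SE 0.36) over APP3, in the direction that lowers the ratio, and neither was past the FDR limit. miR-500-3p took between 97.5% and 99.0% of its hairpin, and the intervals of the 4 mice overlap. The mir-532 hairpin gave mainly the 5p arm, with 4.13% on the 3p arm in WT1 (3.78 to 4.51) and between 5.51% and 5.87% in the other mice.

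The 2 remaining hairpins were less one-sided. On mir-362 the 3p arm had 59.7% of the reads in WT1 (53.8 to 65.4) and 49.6% in WT2 (43.6 to 55.6), against 67.4% in APP3 (61.1 to 73.1) and 66.9% in APP4 (60.8 to 72.6). Both AD mice were above both WT mice, but the intervals of WT1 and of each AD mouse overlap. On mir-188 it had 22.8% in WT1 (17.7 to 28.8) and 33.0% in WT2 (26.9 to 39.7), against 19.4% in APP3 (14.7 to 25.1) and 19.05% in APP4 (13.8 to 25.7). WT2 was the highest on this hairpin, apart from the AD mice but not from WT1, and the other 3 mice overlap. With 2 mice per genotype an exact two-sided permutation test cannot go below p = 0.333, so these shares were not tested.

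**Figure D3:**
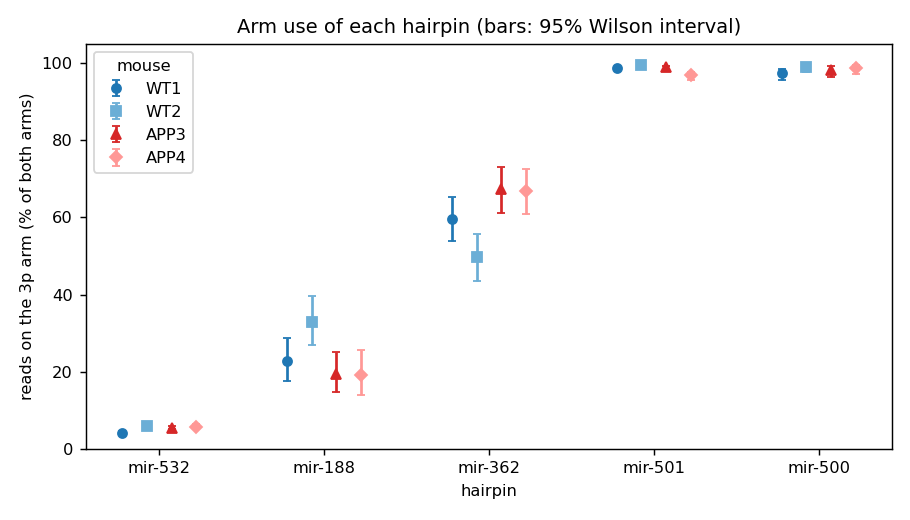
Share of the reads of each hairpin on the 3p arm, in percent of both arms, with 95% Wilson intervals for each of the 4 mice. mir-532 stays between 4.13% and 5.87%, mir-501 and mir-500 lie at or above 96.9%, and mir-362 ranges from 49.6% to 67.4%.

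With the mice as replicates, no member passed the test between the genotypes. It was edgeR's quasi-likelihood test, with TMM and Benjamini-Hochberg adjustment, and 9 of the 10 members passed the filter on low counts and miR-500-5p did not. Of the 623 miRNAs tested, 0% were below 0.05 after adjustment and 36 had an unadjusted p under 0.05, or 5.78%. For miR-501-3p the log2 fold change was -1.196 (SE 0.49, edgeR adjusted p = 0.768), and its unadjusted p was the lowest of the members. miR-362-5p followed with -0.54 (SE 0.25, edgeR adjusted p = 0.768) and miR-188-3p with -0.52 (SE 0.32, edgeR adjusted p = 0.929). The other 6 lay between -0.10 and 0.23, with edgeR adjusted p-values of at least 0.958. With the sibling pair as a block, which called 2 miRNAs and none of the members, miR-501-3p had -1.19 (SE 0.20, edgeR adjusted p = 0.0828).

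In these libraries the edgeR value of miR-501-3p rested on single mice. Leaving out a mouse leaves 1 in its genotype, and that mouse is assumed to vary like the others. These fits do not use the sibling pairs, within which miR-501-3p had -1.19 in group 1 and -1.198 in group 2 with TMM. Without WT2 its log2 fold change was -0.43, and without APP4 it was -0.72. Without WT1 it was -1.69. Without APP3 it was -1.92, where APP4 alone stood for the AD mice and their spread did not enter. These fits also take part of their spread from the other miRNAs, so their p-values are not given. miR-362-5p and miR-188-3p shrank to -0.28 and -0.17 without WT2. Levels did not overlap between the genotypes for 4 of the 10 members, with miR-532-3p, miR-188-5p and miR-362-3p higher and miR-362-5p lower in AD mice, where 36% of the miRNAs tested did not overlap. With TMM library sizes it was 3 of 10, miR-188-3p, miR-362-5p and miR-362-3p, where the share was 34.0%. miR-501-3p was not among them on either scale. Beyond these libraries, the paper reports quantitative RT-PCR in a larger set of mice of the same age, which included the sequenced mice. There miR-501-3p was also lower in the AD mice. Those measurements were not examined here.

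Compared with other clusters of hairpins, the members moved apart more widely than most, and less so without miR-501-3p. Since miR-501-3p was picked out on these libraries, a wide spread with it included follows in part from that choice. The comparison is given as a description. For the 4 members that averaged 10 RPM or more, the SD of the log2 fold changes within the cluster was 0.59 in group 1 and 0.71 in group 2. In 17 other clusters, with at least 3 such miRNAs on hairpins of the same strand at most 10 kb apart, the median SD was 0.32 in group 1 and 0.26 in group 2. Of these, 2 reached 0.59 in group 1 and 0 reached 0.71 in group 2. Without miR-501-3p the SD was 0.29 and 0.32, and 8 and 10 of the 17 clusters were at or below it. Among the 84 other miRNAs with a hairpin on the X chromosome, 5 of 76 tested (6.58%) were called in group 1, all higher, and 3 of 78 (3.85%) in group 2, 1 higher and 2 lower, against 11.6% and 6.81% of all miRNAs tested. Their median log2 fold change was 0.23 in group 1 and 0.05 in group 2.

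The miRNAs whose levels over the 4 mice were most like those of miR-501-3p came from other loci. Likeness was measured as the Euclidean distance between log2 RPM, each centred on its mean over the 4 mice, over the 252 miRNAs that averaged 50 RPM or more. The nearest were miR-99b-5p (0.29), miR-100-5p (0.32), miR-409-5p (0.55), miR-342-3p (0.69) and miR-99a-5p (0.86). miR-532-5p, the only neighbour at that level, had a distance of 1.73 and rank 117 of 251. miR-99b-5p had 8632, 18065, 9450 and 4986 RPM. miR-409-5p had 127, 377, 123 and 46.8 RPM. As for miR-501-3p, WT2 was the highest and APP4 the lowest for all 5, with WT1 and APP3 between them. With 4 mice such profiles have few ways to differ, and the study had singled out miR-99b-5p, miR-100-5p and miR-409-5p together with miR-501-3p on these libraries. From the same libraries, the paper also lists miR-342-3p as lower in the AD mouse of group 2 and miR-99a-5p in that of group 1.

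The mature sequences of these miRNAs have 5 letters in common with miR-501-3p. They are shown with the letters ACCCG in capitals, beside miR-500-3p, in which the base C9U interrupts them.
miR-501-3p: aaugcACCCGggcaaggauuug
miR-99b-5p: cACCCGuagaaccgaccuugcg
miR-100-5p: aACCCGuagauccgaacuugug
miR-409-5p: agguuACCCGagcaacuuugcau
miR-342-3p: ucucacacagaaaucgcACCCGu
miR-99a-5p: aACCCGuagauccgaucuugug
miR-500-3p: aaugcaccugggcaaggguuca
The letters stand at bases 6 to 10 of miR-501-3p and miR-409-5p, at bases 2 to 6 of the miR-99 and miR-100 sequences and at bases 18 to 22 of miR-342-3p. They were looked for, on the RNA strand only, after the profiles had been seen, so no test was made. They occur in 10 of the 754 miRNAs of the table with a RefSeq sequence, or 1.33%, and in 1 of the 9 members with a sequence. Of 216 miRNAs with a sequence that averaged 50 RPM or more, 6 hold them, and these are miR-501-3p and its 5 nearest profiles. The seed of miR-501-3p, AUGCACC, overlaps the letters in part and is complete in miR-500-3p, whose levels did not take this course. At a lower level, miR-1247-5p begins with the letters and did not take it either, with 15.2, 15.2, 14.2 and 15.9 RPM. Whether the letters have a part in the profiles was not tested.

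**Figure D4:**
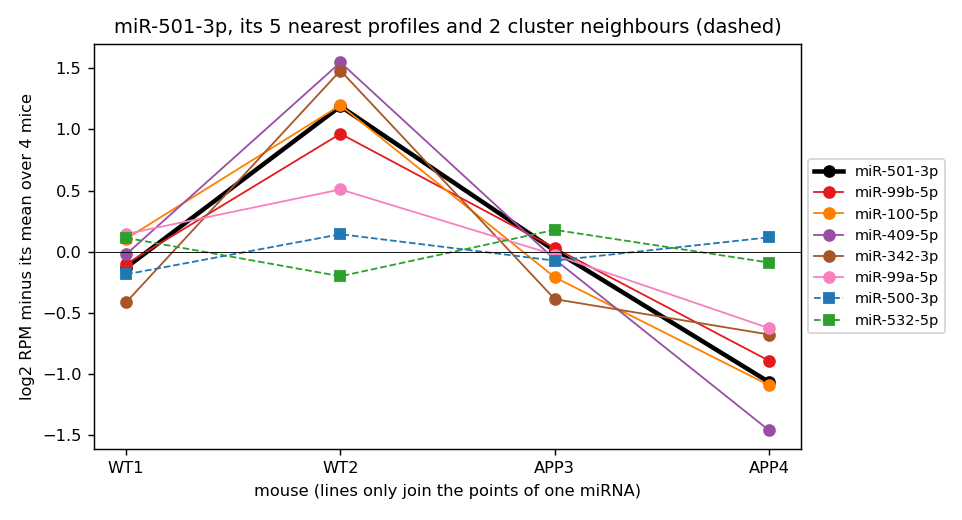
Log2 RPM of each miRNA minus its mean over the 4 mice, for miR-501-3p (black), the 5 miRNAs with the nearest profiles (solid) and 2 neighbours in the cluster (dashed). The solid lines have their highest point in WT2 and their lowest in APP4, and the dashed lines stay within a narrow band, with a highest level over lowest level of 1.26 for miR-500-3p and 1.30 for miR-532-5p.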

How the data were processed

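Small RNA of the cortex of 4 mice was sequenced by the authors, who kept trimmed reads of small RNA length, matched these to miRBase with Bowtie and CLC and deposited the counts of mature and variant reads per miRNA without normalization. The table also holds RPM relative to the clean reads, made by the authors, and these served here only as an alternative library size. The study's methods name GRCm38 and the processing notes mm9 and CASAVA 1.8. Counts were scaled to the miRNA reads of each library, and no column was left out. Pairs of libraries were compared with Fisher's exact test, two-sided, in scipy 1.17.1, with 0.5 read added for log2 fold changes. The genotype comparison used the quasi-likelihood test of edgeR 4.0.16 (R 4.3.3) after filterByExpr and TMM, and DESeq2 1.42.0 was an alternative. These tests were tested on simulated data, which for edgeR and DESeq2 varied less between mice than these libraries. Their performance at the variation seen here was not tested. No library repeated another. The p-values of edgeR and DESeq2 rest on the spread between 2 mice per genotype, drawn for each miRNA towards that of all miRNAs tested. With the sibling pair as a block, edgeR uses the spread left after the pairs are taken out. Those of Fisher's exact test cover counting error only. The sibling pairs are stated in the study's methods, and the deviations of siblings from the genotype means correlated with r = 0.235 over 252 miRNAs. Wilson intervals cover counting error only. All members were named, and the miRNAs of like profile were the 5 nearest with at least 50 RPM. The members and lists were chosen with earlier results of these data known. Sequences are from RefSeq (GRCm38.p6), and 770 of the 942 miRNAs could be placed on a single hairpin.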

Additional observations from a re-analysis of the deposited data

Results flagged for a closer look

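miR-532-5p moved in opposite directions in the sibling pairs, by -0.20 (SE 0.02) for APP4 over WT1 and by 0.38 (SE 0.02) for APP3 over WT2 in log2. With TMM library sizes the values were -0.46 and 0.36. Whether the pairs differ was not tested, since each pair holds 1 mouse of each genotype.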

How the results depend on the processing

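The limits and the scaling of counts to 1000000 moved the number of miRNAs called between libraries by more than 1.5-fold. In group 1, group 2, WT2 against WT1 and APP4 against APP3, in this order, 104, 61, 89 and 73 miRNAs were called. Counts scaled to 1000000 and rounded gave 32, 23, 21 and 23, a mean of at least 10 RPM 50, 30, 36 and 39, the Bonferroni correction 65, 34, 51 and 47, and a limit of 2-fold 50, 23, 38 and 38. With TMM the split of higher and lower calls went from 67 and 22 to 40 and 37 between the WT mice and from 46 and 27 to 29 and 42 between the AD mice. miR-501-3p kept its direction in each comparison of libraries and lost a call only with the limit of 2-fold in group 1. miR-362-5p lost its call in group 2 with the scaled counts, Bonferroni and the limit of 2-fold. Small values changed sign for miR-188-5p in group 1 (-0.087 with TMM) and between the WT mice (0.042 with clean reads), for miR-362-5p in group 1 (0.017 with 5 reads added) and for miR-362-3p between the WT mice (0.014 with clean reads). In edgeR, where 0 miRNAs were called, the sibling block gave 2 and DESeq2 gave 2. Leaving out 1 mouse leaves 1 in its genotype, so the calls of those fits are not given. The block changed no other call. Without TMM, edgeR gave miR-532-5p 0.086 and miR-500-3p 0.037 in place of -0.049 and -0.096. With a mouse left out, the log2 fold change lay between -0.26 and 0.17 for miR-532-5p, -0.010 and 0.31 for miR-532-3p, -0.014 and 0.34 for miR-188-5p, -0.10 and 0.35 for miR-501-5p, -0.21 and 0.056 for miR-500-3p, -0.74 and -0.28 for miR-362-5p, and -0.80 and -0.17 for miR-188-3p. With 5 reads added, the 18 distances from miR-501-3p stayed within their intervals, and the interval of miR-362-5p in group 2 no longer held 0. The causes were not tested. Depth limits miR-500-5p, miR-501-5p and miR-188-3p, which had at most 67 reads in a library.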

Other observations

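Besides the 6 miRNAs with at least 50 RPM, the letters ACCCG occur in miR-1247-5p, miR-1193-3p, miR-5122 and miR-3100-3p. miR-1247-5p, which begins with them, had 15.2, 15.2, 14.2 and 15.9 RPM, with WT1, WT2, APP3 and APP4 in this order, so it did not take the course of miR-501-3p. miR-1193-3p had 2.88, 4.12, 3.20 and 3.15 RPM, highest in WT2 but not lowest in APP4. miR-5122 had 24 reads in WT1 and between 39 and 45 in the other mice, and miR-3100-3p had at most 2 reads. The letters were chosen after the values were seen, and only the 754 miRNAs with a RefSeq sequence were searched.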
